A study of Mus musculus with 6 samples.

Results

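Glutathione transferases, UDP-glucuronosyltransferases, sulfotransferases and carboxylesterases were followed in mouse ileum, the last stretch of the small intestine. The members were all genes of the deposited tables whose symbol begins with Gsta, Gstk, Gstm, Gsto, Gstp, Gstt or Gstz, with Ugt1 or Ugt2, or with Sult or Ces, each followed by its number. The choice used names only, and it gave 75 of the 23341 gene symbols listed. Tissue came from C57BL/6 mice at 24 weeks of age, 3 wild type and 3 TLR4ΔIEC. TLR4ΔIEC mice lack Toll-like receptor 4, the receptor for bacterial lipopolysaccharide, conditionally in intestinal epithelial cells. The promoter that drives the deletion is not given in the sources used here. No treatment is named for either group.

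The conjugation enzymes carry out what is called phase II of drug metabolism: they join glutathione, glucuronic acid or sulfate to drugs, food compounds, bilirubin, steroids and oxidised lipids, which makes these more water-soluble and easier to export. Phase I enzymes, chiefly the cytochrome P450s, often act first and create the site for the attachment. Carboxylesterases cut ester and amide bonds in drugs and lipids. The enterocytes of the intestinal lining express members of all 4 families and are among the first cells to meet swallowed chemicals.

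One column of average coverage was deposited for each genotype, and the labels give it to all 3 mice of that genotype. Every value is therefore that of a pool, with no spread between mice, no test and no p-value, and each difference is one between 2 pools without a replicate check. The libraries of each genotype were also sequenced as their own pool, so genotype and sequencing pool cannot be told apart. The wild type column summed to a coverage of 699800 over 22724 entries and the TLR4ΔIEC column to 698473 over 22687. Both were put on 1 scale, in units that add up to 1000000 on average, and ratios are given as log2 of TLR4ΔIEC over wild type after 1 unit was added to each value. A gene counted as measured at a mean of at least 5 units, a coverage of about 3.41 in wild type and 3.58 in TLR4ΔIEC. Coverage is per base of transcript, so levels can be set side by side between genes, but only roughly. An average depends on the annotated length of the entry and on sequence shared with other genes. The targeted gene Tlr4 stood at a wild type coverage of 1.98 and a TLR4ΔIEC coverage of 1.60, in whole tissue that holds cells in which it is not deleted. In whole tissue, fewer cells of a type and less RNA per cell cannot be told apart.

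Of the 75 members, 36 were measured, 38 were too weak, and 1 (Sult2a2) was listed in the wild type column only. The conjugation enzymes and carboxylesterases were at similar levels in both columns. Of the measured members, 1 was 2-fold or more below wild type in the TLR4ΔIEC column and 0 were 2-fold or more above it. Over all 8891 measured genes these shares were 2.79% below and 1.29% above, or 4.08% in either direction, so the members' count lies near the background. The members' median log2 ratio was 0.05, beside 0.03 over all measured genes, with 22 members above 0 and 14 below. Within 1.5-fold of equality lay 91.7% of the members and 83.3% of all measured genes. When the 8 Ugt1a entries, which share most of their sequence, were counted once, that share of members was 89.7%. Of the 29 measured members then left, 15 were above 0 and 14 below, with a median log2 ratio of 0.0002.

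**Figure D1:**
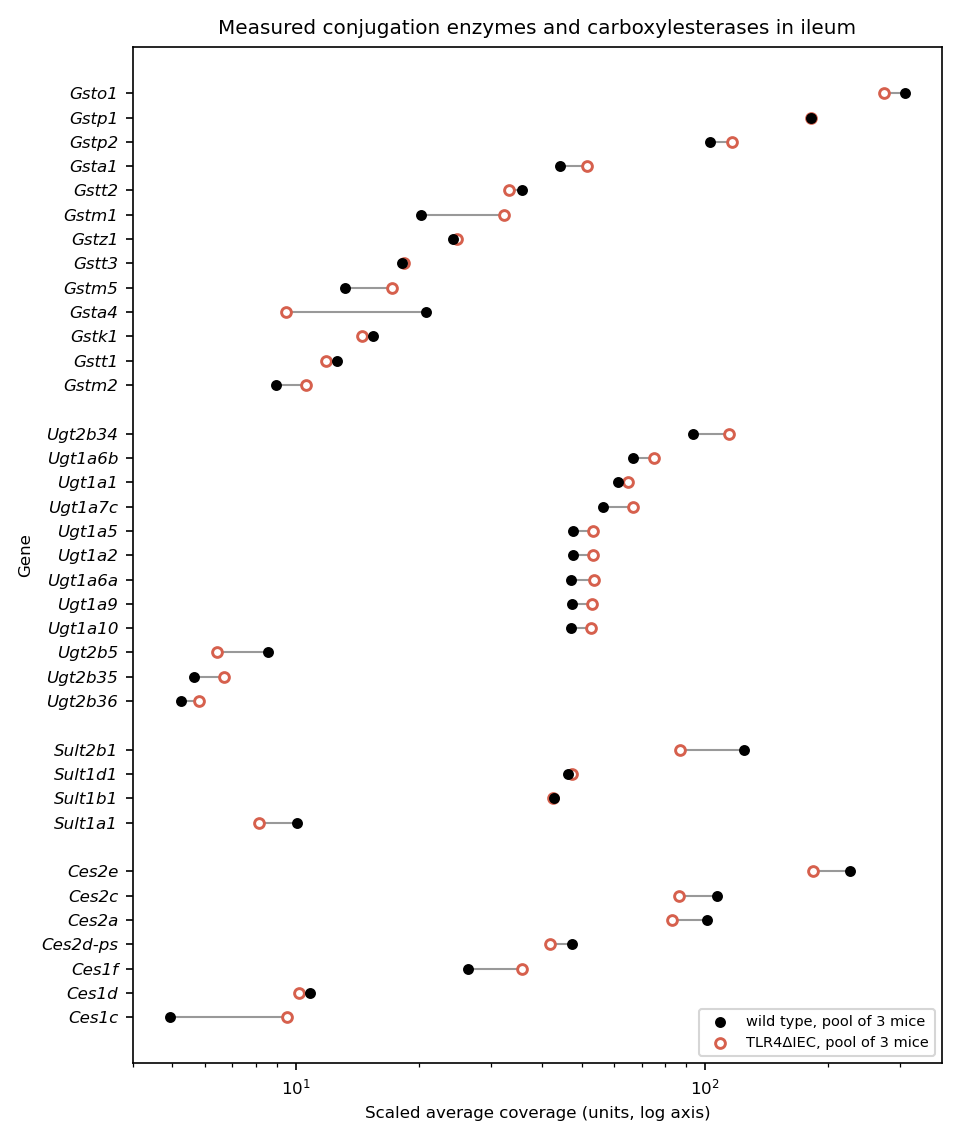
Scaled average coverage (units, log axis) of the 36 measured members, 1 row per gene, grouped by family and ordered by mean level. Filled points are the wild type pool and open points the TLR4ΔIEC pool; the pairs lie close together except for a few genes such as Gsta4 (20.8 and 9.45 units).

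**Figure D2:**
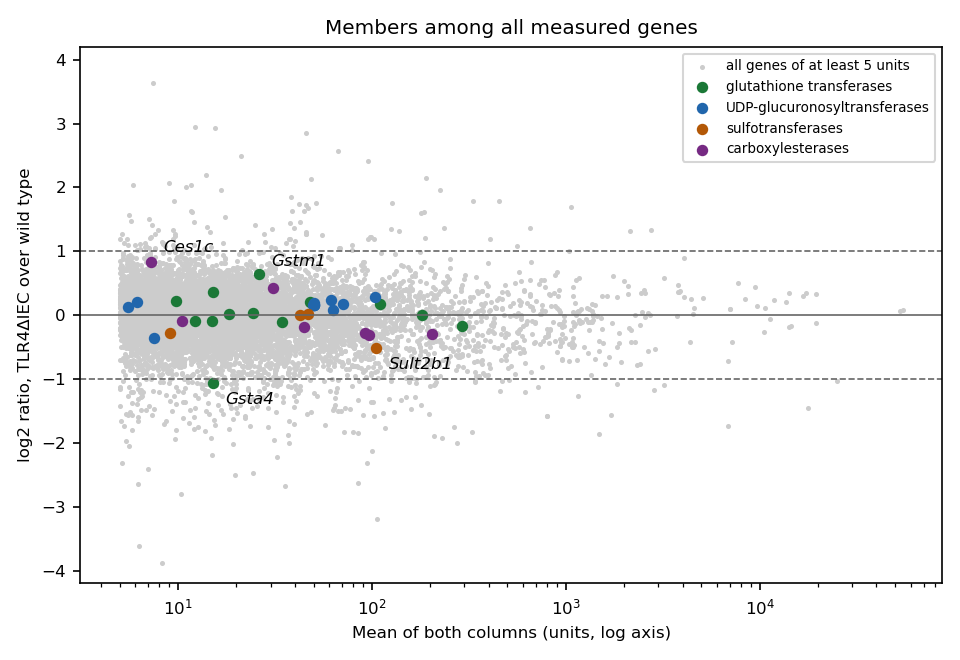
Log2 ratio of TLR4ΔIEC over wild type against the mean of both columns (units, log axis) for all 8891 measured genes (grey) and the 36 measured members (coloured by family). Dashed lines mark 2-fold; Gsta4 is the 1 member beyond them.

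The Ugt1a genes need to be read through their sequence first. They are a single locus on chromosome 1 in which each entry has its own start, with its own first exon or pair of exons, spliced to the same 4 final exons. The own exons encode the part of the enzyme that binds the substrate, and the shared exons the part that binds UDP-glucuronic acid. The join is shown for 4 entries, because the bases after it belong to every entry (GENCODE vM21 transcripts, build GRCm38, plus strand). Capitals are the last 36 bases of the own exons, and lower case the first 24 bases of the shared exon, chr1:88215044-88215067. The own parts shown are chr1:88212836-88212871 for Ugt1a1, chr1:88095943-88095978 for Ugt1a7c, chr1:88071643-88071678 for Ugt1a9 and chr1:88139296-88139331 for Ugt1a6a.
Ugt1a1: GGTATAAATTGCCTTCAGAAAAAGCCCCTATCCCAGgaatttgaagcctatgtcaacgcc
Ugt1a7c: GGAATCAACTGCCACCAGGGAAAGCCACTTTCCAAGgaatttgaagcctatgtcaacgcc
Ugt1a9: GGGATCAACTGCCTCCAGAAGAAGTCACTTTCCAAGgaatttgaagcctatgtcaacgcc
Ugt1a6a: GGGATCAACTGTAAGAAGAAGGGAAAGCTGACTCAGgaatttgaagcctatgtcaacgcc
The lower case bases are the same in all 4, so a read that lies wholly in the shared exons holds nothing that would give it to one entry.

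The deposited averages of the 8 Ugt1a entries were correspondingly close. Ugt1a10, Ugt1a9, Ugt1a6a, Ugt1a5 and Ugt1a2 lay between 47.0 and 47.6 units in wild type and between 52.6 and 53.6 units in TLR4ΔIEC. Ugt1a1, the enzyme that conjugates bilirubin, was at 61.3 and 64.7 units, Ugt1a7c at 56.4 and 66.7 units, and Ugt1a6b at 66.6 and 75.2 units. All 8 log2 ratios were above 0, from 0.08 for Ugt1a1 to 0.24 for Ugt1a7c, but they are not 8 separate measurements.

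The averages could be taken apart, since in all 8 entries they were a whole number of bases over exactly the RefSeq transcript length. In 7 of the 8, that length was the 2316 bases of the shared exons plus the entry's own exons. Average times length gave 104055 bases of reads for Ugt1a9 in wild type, the fewest of the 7, and 104061 for Ugt1a2, 104206 for Ugt1a5 and 104240 for Ugt1a10. In TLR4ΔIEC the same entries had 121780, 121974, 122216 and 121920 bases. These 4 entries were thus within 185 bases of each other in wild type and 436 in TLR4ΔIEC, although their own exons differ. If nearly all of their bases lie in the shared exons, coverage averaged over those 2316 bases was no more than 44.9 in wild type. In TLR4ΔIEC it was no more than 52.6, a log2 ratio of 0.16.

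What an entry holds beyond Ugt1a9 then falls on its own exons. Ugt1a1 held 31077 extra bases in wild type and 27642 in TLR4ΔIEC, a coverage of 34.0 and 30.3 over its 913 own bases. Ugt1a7c held 22597 and 35416 extra bases, a coverage of 23.1 and 36.2 over its 978 own bases. So Ugt1a1 had the better covered first exon in wild type and Ugt1a7c in TLR4ΔIEC: the ratio of the first to the second was 1.47 and 0.84. On the common scale, the first exon of Ugt1a1 was at 49.9 and 42.3 units (log2 ratio -0.23) and that of Ugt1a7c at 33.9 and 50.6 units (log2 ratio 0.57, or 1.48-fold higher). Neither reached 2-fold, while the whole entries, at 0.08 and 0.24, did not show that these derived first exon ratios differed in direction. Every entry includes the shared exons. Yet the own coverages of Ugt1a1 and Ugt1a7c together exceed the 44.9 (wild type) and 52.6 (TLR4ΔIEC) given for the shared exons. Those values are averages over all 2316 shared bases. If the last 1004 of these, which the Ugt1a6b entry lacks, held few reads, the rest would be covered more deeply than the averages. This was not tested, so the own exon levels and ratios are approximate. Ugt1a6a held 1709 and 4865 extra bases, a coverage of 1.73 and 4.93 over 986 own bases, which is weak in both columns. Ugt1a6b could not be separated, because its entry ends 1004 bases earlier than the others. Its total of 104246 bases in wild type and 123314 in TLR4ΔIEC was above that of Ugt1a9 all the same. In wild type it lay close to the 104240 bases of Ugt1a10. Either the own exons of Ugt1a6b held many bases, or the 1004 bases it lacks held few in the other entries. Which of these applies was not tested, so Ugt1a6b has no place in an order of the entries. The 36 own bases before the join are identical in Ugt1a6a and Ugt1a6b.

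**Figure D3:**
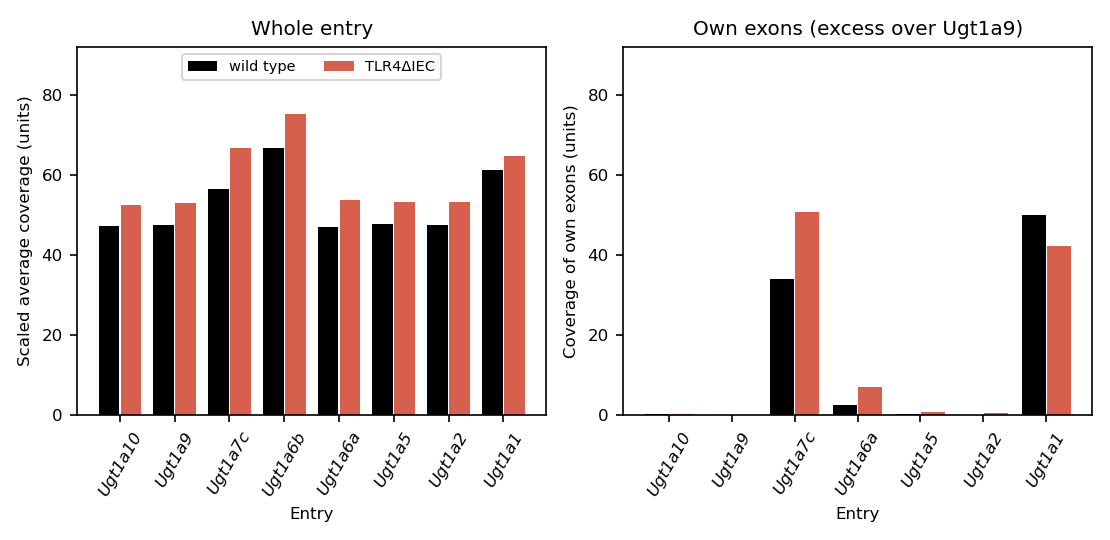
Left, scaled average coverage (units) of the 8 Ugt1a entries in order along the chromosome, wild type in black and TLR4ΔIEC in red. Right, coverage of each entry's own exons (units), taken as its bases beyond those of Ugt1a9, without Ugt1a6b, which could not be separated; Ugt1a1 is higher in wild type (49.9 against 42.3) and Ugt1a7c in TLR4ΔIEC (50.6 against 33.9).

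Each Ugt1a start has a promoter of its own, and those of Ugt1a1 and Ugt1a7c, whose own exons held the most bases among the entries that could be separated, are shown from RefSeq (GRCm38.p6, plus strand), as the 250 bases before the annotated start. They cover chr1:88211709-88211958 for Ugt1a1 and chr1:88094751-88095000 for Ugt1a7c. Capitals mark the match to GTTAAT, a core of the sites of HNF1, a transcription factor of gut and liver. This and the other motifs were searched on both strands.
Ugt1a1: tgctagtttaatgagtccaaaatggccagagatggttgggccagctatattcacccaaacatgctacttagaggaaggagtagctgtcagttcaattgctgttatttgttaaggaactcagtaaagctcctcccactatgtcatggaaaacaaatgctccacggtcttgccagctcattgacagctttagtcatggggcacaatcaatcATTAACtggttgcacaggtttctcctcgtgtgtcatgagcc
Ugt1a7c: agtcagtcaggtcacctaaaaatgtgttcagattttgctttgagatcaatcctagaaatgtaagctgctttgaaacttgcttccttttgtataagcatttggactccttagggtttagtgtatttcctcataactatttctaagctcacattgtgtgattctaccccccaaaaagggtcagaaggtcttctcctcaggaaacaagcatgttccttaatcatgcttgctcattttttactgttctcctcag
The match in Ugt1a1 starts 41 bases before the gene's start, and none of the 4 motifs searched was found in the Ugt1a7c window. Of the 36 measured members, 30 had a promoter in the table. GTTAAT was in 6 of them (Ugt1a1, Ugt1a6a, Ugt1a9, Ugt1a10, Sult1a1 and Sult1d1) and in 7.49% of all 27025 genes with a promoter. The core of the antioxidant response element, TGACNNNGC, was in 1 of the 30 (Gstm5) and in 11.5% of all genes. The core of the xenobiotic response element, GCGTG, was in 7 of the 30 and in 30.9% of all genes, and TATAAA in 1 of the 30 (Gstm1) and in 14.3%. The end of TGACNNNGC can overlap GCGTG. A match describes the letters only.

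The Ugt2 genes, in a cluster on chromosome 5, make enzymes for steroids, bile acids and drugs. The weakly covered Ugt2a1 and Ugt2a2 overlap there and share most of their sequence, while the 4 measured Ugt2b genes lie apart from each other. Ugt2b34 (86889767 to 86906937, minus strand) led them, with a wild type coverage of 63.8 and a TLR4ΔIEC coverage of 82.0, or 93.5 and 115 units (log2 ratio 0.29). Its average was the highest among the UDP-glucuronosyltransferase entries in both columns. Ugt2b5 was at 8.56 and 6.44 units (-0.36), Ugt2b35 at 5.63 and 6.67 units (0.21) and Ugt2b36 at 5.25 and 5.81 units (0.12). Of the windows of 50 bases in the Ugt2b5 transcript, 41.7% also occur in another gene's transcript, chiefly that of Ugt2b38, so its value is uncertain. Over all 12 measured UDP-glucuronosyltransferases, 11 ratios were above 0 and the median was 0.16, with 8 of the 12 from the Ugt1a locus.

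Glutathione transferases join glutathione to reactive compounds, and 13 of 21 were measured, 8 above 0 and 5 below, with a median log2 ratio of 0.02. Gsta4, which acts on 4-hydroxynonenal, a toxic product of lipid peroxidation, was the 1 member that passed 2-fold. Gsta4 (chromosome 9, 78182774 to 78209349, plus strand) had a wild type coverage of 14.2 and a TLR4ΔIEC coverage of 6.76, resting on 13609 and 6478 bases of reads over 958 bases. That is 20.8 and 9.45 units, a log2 ratio of -1.06, or 2.09-fold lower. No window of 50 bases of its transcript occurs in another gene's transcript. The ratio lies just past the line, at -0.9961 when columns were scaled to their totals and at -0.84 with a pseudocount of 5, so the call depends on these settings.

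Its neighbour Gsta1, of the same alpha class, lay on the other side of 0, at 44.2 and 51.3 units (0.21). Of its 50-base windows, 82.9% also occur in the gene model Gm3776, so reads of that model may be in the value. Gsta3 and Gsta2 were below the measured level, with a coverage of 1.79 and 4.61 for Gsta3 and of 1.81 and 2.71 for Gsta2.

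Of the mu class, clustered on chromosome 3, all 3 measured genes of 7 were above 0. Gstm1, a broad detoxifying enzyme (108012255 to 108017973, minus strand), was covered by 17889 bases of reads in wild type and 29815 in TLR4ΔIEC, over a length of 1294. In units it was at 20.3 and 32.2, a log2 ratio of 0.64, or 1.56-fold higher, the highest ratio among the measured glutathione transferases. Gstm5 was at 13.2 and 17.2 units (0.36) and Gstm2 at 8.95 and 10.6 units (0.22). The other 4 were weak: coverage was 2.63 and 3.18 for Gstm3, 1.57 and 2.06 for Gstm7, 3.38 and 2.71 for Gstm4 and 1.81 and 1.58 for Gstm6. Of the Gstm1 windows, 23.2% are shared with other genes, while Gstm5 shares none.

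The most abundant glutathione transferases lay near 0. Gsto1, an omega class enzyme that reduces arsenic compounds and dehydroascorbate, was the highest of all 75 members at 308 and 273 units (-0.18). Gstp1 of the pi class stood at 182 units in both columns, and Gstp2 at 103 and 116 units (0.17). These 2 adjacent genes on chromosome 19 share 62.3% of the Gstp1 windows, so their reads may be mixed. The theta class enzymes Gstt2 (35.8 and 33.1 units), Gstt3 (18.2 and 18.4 units) and Gstt1 (12.6 and 11.8 units) had log2 ratios from -0.11 to 0.02. Of the Gstt3 windows, 26% also occur in the gene model Gm20441. Gstz1, an enzyme of tyrosine breakdown, was at 24.2 and 24.7 units, and the mitochondrial and peroxisomal Gstk1 at 15.5 and 14.5 units. Gsto2 and Gstt4 were hardly covered, between 0.063 and 0.35 in either column.

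Sulfotransferases were represented by few genes, with 4 of 17 measured. Sult2b1, which sulfates cholesterol and related sterols, was the highest, with a wild type coverage of 84.8 and a TLR4ΔIEC coverage of 62.1 from 96305 and 70573 bases over 1136. In units it was at 124 and 86.8, a log2 ratio of -0.51, or 1.43-fold lower, and none of its windows is shared with another gene. Sult1b1 and Sult1d1, neighbours on chromosome 5 that act on thyroid hormone, phenols and catecholamines, were nearly equal in both columns. Sult1b1 was at 42.7 and 42.6 units and Sult1d1 at 46.4 and 47.2 units. Sult1a1, the phenol sulfotransferase, was at 10.1 and 8.13 units (-0.28). Of the others, Sult1c2 had a coverage of 1.92 and 1.45, and Sult4a1, Sult5a1, Sult1e1, Sult1c1, Sult3a1, Sult6b1, Sult2a1, Sult2a4, Sult2a5, Sult2a6 and Sult2a7 were under 1 in both columns. Sult2a2 was listed at 0.053 in wild type.

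Carboxylesterases lie in separate Ces1 and Ces2 clusters on chromosome 8. All 4 measured genes of the Ces2 cluster were slightly lower in TLR4ΔIEC, with log2 ratios from -0.30 to -0.18. Ces2e (104926260 to 104934672, plus strand) was the second most abundant member, with a wild type coverage of 154 and a TLR4ΔIEC coverage of 131, or 226 and 183 units (-0.30). Ces2c, which hydrolyses acylcarnitines and drugs, was at 107 and 86.4 units (-0.30), Ces2a at a log2 ratio of -0.28, from a coverage of 68.8 and 59.4, and the pseudogene Ces2d-ps at 47.3 and 41.7 units (-0.18). Ces2e shares 3.36% of its windows with other genes, but Ces2a shares 22.2%, mostly with the gene model Gm7208. Ces2c shares 42.2% and Ces2d-ps 76.9%, with 38.2% of the Ces2c windows also in Ces2d-ps, so reads may be mixed within the cluster. Of the weak members, Ces2b had a coverage of 3.13 and 3.64 and Ces2g of 2.46 and 2.29. Ces2f and Ces2h were under 1 in both columns.

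Of the Ces1 cluster, 3 of 7 genes were measured. Ces1f (93256236 to 93279747, minus strand), a lipid and drug esterase of liver and fat, was covered by 34508 and 48821 bases of reads over a length of 1915, or 26.4 and 35.6 units, a log2 ratio of 0.42. Ces1c, best known as the esterase of mouse plasma, was at 4.92 and 9.53 units, a log2 ratio of 0.83. Its wild type value is under 5 units, so it counted as measured only through the TLR4ΔIEC column, and nothing is read from its rank. In addition, 17.0% of its windows are shared, mostly with Ces1b. Ces1d, a triglyceride hydrolase of liver and fat, was at 10.8 and 10.2 units (-0.08). Of the weak members, Ces1e had a coverage of 2.29 and 3.20 and Ces1b of 0.73 and 1.54, and Ces1g, which acts on lipids in gut and liver, had 2.32 and 1.61. Ces1a, Ces3a, Ces3b, Ces4a and Ces5a were under 1 in both columns.

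Fat and liver genes were looked at beside the Ces1 values. All 5 measured adipose markers of 9 were below 0, 4 of them at least 2-fold lower, and their summed level went from 229 to 111 units, with Fabp4 at -0.85 and the fat hormone Adipoq, named after its value was seen, at 9.63 and 3.42 units. Of these 5, 2 were under 5 units in TLR4ΔIEC and counted as measured only through wild type. Of 11 hepatocyte markers, 1 was measured (Cyp2e1, named after its value was seen, at 6.58 and 3.67 units), and the other 10 were under a mean of 5 units. Among these weak ones, Alb was at 0.84 and 6.11 units, Hp at 3.50 and 2.34 and Serpina1a at 2.56 and 1.31. The part of these cells in the Ces1 values was not tested.

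The remaining weak members were UDP-glucuronosyltransferases. Ugt2b38 had a wild type coverage of 1.47 and a TLR4ΔIEC coverage of 0.61, and Ugt2a3 of 1.13 and 0.79. Ugt2b37, Ugt2b1, Ugt2a1 and Ugt2a2 were at most 0.34 in both columns. In all, 24 of the 38 weak members were under a coverage of 1 in both columns, and no ratio is given for any of the 38. Just below the measured level lay Ces2b (mean 4.84 units) and Gsta3 (4.53), and just above it Ugt2b36 (5.53) and Ugt2b35 (6.15).

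Cytochrome P450 genes are given beside the members as background of phase I. Of 84 genes of cytochrome P450 families 1 to 4, 20 were measured, 19 were below 0, and 9 were at least 2-fold lower, with a median log2 ratio of -0.89, or -0.11 when weakly covered genes were let in. Of the 20, 6 were under 5 units in TLR4ΔIEC and counted as measured only through wild type, where they were higher; 5 of these 6 are among the 9, so the counts are a description of the measured genes only. The highest P450, Cyp4f14, was at 287 and 135 units (-1.08). The summed level of the P450s went from 885 to 472 units and that of the measured members from 2087 to 2034 units. The members' sum holds the shared Ugt1a exons 8 times. With Ugt1a counted once, it went from 1713 to 1615 units. With 1 pool per genotype, the difference between the gene families could not be tested.

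**Figure D4:**
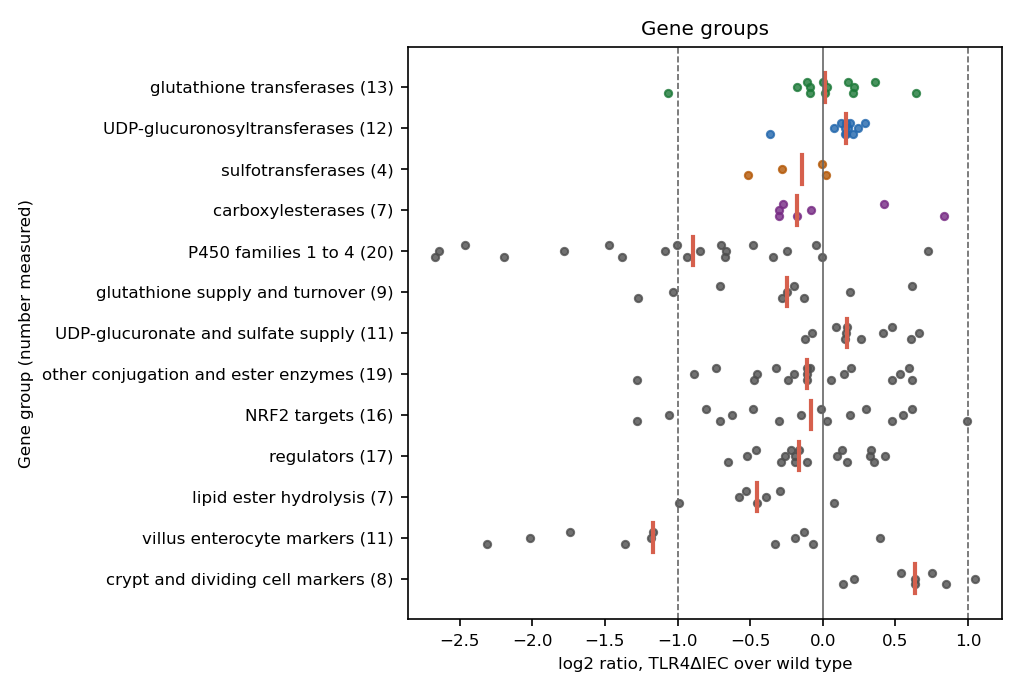
Log2 ratio of TLR4ΔIEC over wild type for each measured gene (points) of the 4 enzyme families, of P450 families 1 to 4 and of related gene groups, with the group's median as a red line and 2-fold as dashed lines. The medians of the 4 enzyme families lie between -0.18 and 0.16, that of the measured P450 genes at -0.89 and that of the villus enterocyte markers at -1.17.

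Genes for the supply and turnover of the conjugating groups were counted by pathway, and the difference between pathways was not tested. Of 11 measured genes for UDP-glucuronic acid and activated sulfate, 9 were above 0 and none reached 2-fold (median 0.17). Among them, Ugdh, which makes UDP-glucuronic acid, was at 47.6 and 53.2 units (0.15), the sulfate transporter Slc26a2 at 0.26, Impad1, which clears a by-product of sulfation, at 0.48, and the glucuronide-cleaving Gusb at 0.66. Of the measured glutathione genes, 7 of 9 were below 0, 2 of them past 2-fold, and a median of -0.24. The 2 were Ggt1 (211 and 86.7 units, -1.28) and Dpep1 (629 and 307 units, -1.03), which break down glutathione and its conjugates at the cell surface. Gclm, a subunit of the enzyme that starts glutathione synthesis, was at -0.71, while the reductase Gsr was at 0.61.

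Other enzymes of conjugation, reduction and ester cleavage showed no common direction, with 7 of 19 above 0, 1 at least 2-fold lower and a median of -0.11. The carbonyl reductase Cbr1 was the 1, at 237 and 97.1 units (-1.28), followed by the epoxide hydrolase Ephx2 (-0.89) and the aldehyde dehydrogenase Aldh1a1 (-0.74). The membrane-bound glutathione transferase Mgst1 was at 194 and 296 units (0.61), close to the ratio of Gstm1. Enzymes of lipid ester hydrolysis had 6 of 7 below 0 and a median of -0.45, with Abhd6 at -0.99, Pnpla2 at -0.53 and Pnliprp2 at 0.08. Of these 7, 1 was under 5 units in TLR4ΔIEC and counted as measured only through wild type, as did 2 of the 19 other enzymes.

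Targets of NRF2, the transcription factor of the oxidant response, were split, with 7 of 16 above 0 and 2 past 2-fold in the lower direction: Cbr1 (above) and Osgin1 (-1.06), which was named after its value was seen. Their median of -0.08 turned to 0.03 when the 50 highest genes were kept out of the totals used for scaling. Nqo1, a quinone reductase, was at 18.1 and 36.9 units (0.99), Gclm, also counted with the glutathione genes, at -0.71 and the ferritin chain Fth1 at -0.81. Of 17 measured regulators of these genes, none reached 2-fold, and the median was -0.16. The xenobiotic receptor Nr1i2 (PXR) was at 36.5 and 26.3 units (-0.46), Ppard at -0.65, Bach1 at 0.35 and the vitamin D receptor Vdr at 0.43.

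Markers of the epithelium moved beside these values. Of 9 general epithelial markers, 6 were below 0 and none reached 2-fold (median -0.12), and their sum went from 6506 to 6079 units, with Epcam at -0.40, Ezr at -0.45, Cldn7 at -0.65 and Krt19 at 0.43. Villus enterocyte markers had 10 of 11 below 0 and 6 at least 2-fold lower (median -1.17), while 5 lay within 1.5-fold of equality. Their sum was 17911 and 7497 units, of which Apoa1 alone made up 10545 and 3157. Those at least 2-fold lower included Ada (-2.31), Apoa1 (-1.74), Alpi (-1.36) and Apoa4 (-1.19). All 8 measured crypt and dividing cell markers were above 0 (median 0.63, sum 315 and 483 units). Of 7 Paneth cell markers 6 were above 0 (median 0.15), of 6 measured goblet cell markers 2 (median -0.17), and of 7 smooth muscle markers all (median 0.11). Lymphocyte and plasma cell markers had 7 of 8 above 0 and 3 of them past 2-fold (median 0.83, sum 348 and 1047 units), with Igj, the joining chain of antibodies, at 1.79 and Gzma at 1.75. By gut region, 3 proximal markers were measured, 2 below 0 and 1 above (median -1.19). Fabp1 was at -3.20, and Apoa4, also counted with the villus markers, at -1.19. Of 8 measured distal markers, 7 were below 0 (median -0.46). All 4 measured of 9 markers of the large intestine were above 0 (median 0.41). Of these 4, 1 was under 5 units in wild type and counted as measured only through TLR4ΔIEC. The distal markers with the largest ratios were Amn (-0.94), Fgf15 (-0.63), Cubn (-0.62) and Slc51a (-0.56), and none of the 8 reached 2-fold. The bile acid genes Fabp6 (15350 and 13628 units) and Slc10a2 (93.0 and 93.7 units), markers of the ileum named after their values were seen, had coverage in both columns. Of 8 pancreas markers, 1 was measured (Cela1, named after its value was seen, at 6.89 and 11.1 units). The part of cell composition in the members' values was not tested.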

How the data were processed

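Whole-transcriptome Ion Torrent libraries were made from ribosome-depleted ileum RNA of 3 wild type and 3 TLR4ΔIEC mice, 1 barcode per mouse, per the labels' protocols. The authors deposited average coverage, a signal per RefSeq entry, in 1 column per genotype, per the file headers. The submitters' processing notes name TopHat2 2.0.10, Bowtie2 2.1.0 and mm10. Read length, strand use and the coverage tool: not given in the sources used here. Hence coverage was not turned into reads and no counting interval is given. Reads from opposite strands may be mixed.

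The 22001 entries listed in both columns gave 21950 symbols (entry with the highest mean). Entries in 1 column only (723 wild type, 686 TLR4ΔIEC) were left out. Columns were scaled by the median of ratios (factor 1.05) to a mean total of 1000000 units. Log2 ratios used a pseudocount of 1 unit, which understates ratios of weak genes, and a gene entered from a mean of 5 units upward. A test across mice was not possible. Lengths behind averages were recovered as fractions (tolerance 1e-11): for 32 of the 36 measured members the same length lay behind both averages. A recovered length may be a divisor of the true one.

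Symbols were placed in GENCODE vM21 (GRCm38, the assembly of mm10): 75 of 75 members were found, on the deposited chromosome. Own exons of Ugt1a used RefSeq starts and ends. Windows of 50 bases were compared with all GENCODE transcripts of other genes. Members and lists were chosen with earlier results of these data known. All members were named, and of each list up to 4 genes of at least 20 units with the largest absolute ratio. Genes named beyond this rule are marked in the text or, with Hp, Serpina1a, Alb and Cyp4f14, were named after their values were seen. The scaling and the log2 ratios were tested on simulated data. The length recovery, the split of Ugt1a exons, the window comparison and the motif search were not. Python 3.11.15, numpy 2.4.6 and pandas 2.3.3 were used. Other scalings, pseudocounts, filters and ways to treat repeated or missing entries were tried.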

Additional observations from a re-analysis of the deposited data

How the results depend on the processing

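No paired analysis was possible because each genotype has 1 pooled column, and leaving out single mice could not be run for the same reason. Over the 12 alternatives, 405 of 409 values of single members moved by at most 0.2 log2 units and kept their side of 2-fold, and 31 of 36 members kept their sign in all of them. The exceptions in sign, Ces1d, Gstk1, Gstp1, Gstt1 and Sult1b1, lay within 0.09 of 0. These tallies overstate stability. The filters, and the alternatives that only choose among members, cannot change a member's ratio, so their values were the same by construction. Scaling to the column totals moved the median of all genes by only 0.07, and by 0.10 with the 50 highest genes kept out. Both are under the limit of 0.2. Gsta4 was under 2-fold with columns scaled to their totals (-0.9961), with the 50 highest genes kept out of those totals (-0.9645) and with a pseudocount of 5 (-0.84), so the count of members at least 2-fold lower was then 0, as it was with a filter at 20 units, which leaves Gsta4 out. With a filter at 1 unit or none, 1 member was at least 2-fold higher, since the weakly covered Gsta3 entered; a pseudocount of 5 took Ces1c to 0.55.

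The median of the NRF2 targets changed sign with the 50 highest genes kept out of the totals (0.0264), quantile normalization (0.0210), a filter at 1 unit (0.0290) and no filter (0.0099). The sulfotransferase median was 0.0022 and the P450 median -0.11 with no filter, where weakly covered genes enter. The first exon of Ugt1a1 stayed below 0 (-0.24 to -0.13) and that of Ugt1a7c above 0 (0.52 to 0.67) under the scalings and pseudocounts tried; quantile normalization was not run for them. Among all genes past 2-fold, 31.7% were higher (115 higher, 248 lower), and 44.9% (154 and 189) with the 50 highest genes kept out of the totals. The 2 alternatives that keep only members with the same length behind both averages, or count Ugt1a once, were chosen after seeing the data. Depth limits the 38 weak members, for which no difference can be read.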
